A study of Mus musculus with 42 samples.

Results

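10 genes of endothelial cell junctions and gap junctions, of the 21674 genes in the expression table, were followed through carotid intima at low, high and normal flow, through depletion of blood cells, through endothelial deletion of Rbfox2 and in cultured aortic endothelial cells. They are Cdh5, Cldn5, Ocln, Tjp1, Esam, Jam2, Jam3, Gja1, Gja4 and Gja5, and all 10 passed the filter on low counts in every comparison. In young male C57BL/6J mice, partial ligation of the left carotid artery lowered its flow, the artery on the other side carried high flow, and sham-operated arteries kept normal flow. RNA flushed from the intima of several arteries was combined in each pool, so a pool and not a mouse is the unit of replication, and p-values measure the spread between pools. Untreated mice gave 3 pools each of low flow, high flow and sham at 48 hr, named A to C, D to F and G to I after the letters of the table. Treated mice at 48 hr gave 2 low-flow libraries each after anti-GPIba, an antibody that depletes platelets, after anti-Gr1, which depletes granulocytes, after IgG as their control, after clodronate liposomes, which deplete macrophages, and after PBS liposomes as their control. High-flow libraries of treated mice were made under IgG and under PBS liposomes, 2 of each.

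At 7 d after ligation, 3 low-flow and 2 high-flow libraries came from Rbfox2 EC-KO mice, and the same numbers came from littermate controls. All of these mice carried both floxed alleles (Rbfox2 lox/lox) and the Rosa26-mTmG reporter, and the EC-KO mice also carried the inducible Cre Cdh5(PAC)-CreERT2, which the controls lacked. These were adult mice of both sexes on a C57 background. The Cre of the EC-KO mice is driven by the promoter of Cdh5, which is one of the 10 genes. Single libraries came from an aortic endothelial line immortalised with a TetOn-SV40 construct, untreated or given 10% plasma, platelets with macrophages, or all of these, for 48 hr, and co-cultures were lysed whole in the dish. Single libraries also came from primary aortic endothelial cells sorted after culture, as eGFP+ cells and, by CD31 and Icam2, from Rbfox2 control and Rbfox2 EC-KO mice. By the paper's methods, the line and the eGFP+ cells came from mice that carried Cdh5(PAC)-CreERT2 and Rosa26-mTmG. 2 further low-flow pools at 48 hr, 1 with PBS liposomes and 1 with clodronate liposomes, were sequenced with 100 bp reads and had no replicate. In intimal flushes, fewer cells of a type and less RNA per cell cannot be told apart.

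Endothelial cells are joined by adherens junctions, built on VE-cadherin, and by tight junctions, built on claudins, occludin and junctional adhesion molecules that are held to the cytoskeleton by scaffold proteins such as ZO-1. These contacts set how much fluid and how many leukocytes leave the blood. Connexins form gap junction channels that carry ions and small molecules between neighbouring cells, and arterial endothelium is known for Cx37 and Cx40, while Cx43 is found at sites of disturbed flow and in smooth muscle.

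In the NCBIM37 (mm9) annotation, Cdh5, which encodes VE-cadherin, lies at chr8:106625525-106668402 on the plus strand. Cldn5, encoding the claudin of endothelial tight junctions, lies at chr16:18776940-18778353 on the plus strand. Ocln, encoding occludin, lies at chr13:101266462-101322673 on the minus strand, and Tjp1, encoding ZO-1, at chr7:72441051-72516125 on the minus strand. Esam, which encodes an endothelial adhesion molecule of tight junctions, lies at chr9:37335663-37345904 on the plus strand. Jam2 (JAM-B) lies at chr16:84774368-84826173 on the plus strand, and Jam3 (JAM-C), whose protein binds JAM-B, at chr9:26904969-26963003 on the minus strand. Gja1 (Cx43) lies at chr10:56097106-56110225 on the plus strand, Gja4 (Cx37) at chr4:126988665-126991283 on the minus strand, and Gja5 (Cx40) at chr3:96708616-96881339 on the plus strand.

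The promoters of Cldn5 and the 3 connexins, on which the flow results turn, are shown to place the genes in the genome, from the RefSeq table of GRCm38.p6, which holds 6 of the 10 genes. Each stretch runs 5′ to 3′ from 250 bases before the start to 50 after it and was found once in mm9, at chr16:18776690-18776989 for Cldn5, chr10:56096856-56097155 for Gja1, chr4:126991234-126991533 on the minus strand for Gja4 and chr3:96836075-96836374 for Gja5. Capitals mark matches on either strand to CCACCC, a box that Klf factors are known to bind, or to TGANTCA, which AP-1 factors bind.
Cldn5: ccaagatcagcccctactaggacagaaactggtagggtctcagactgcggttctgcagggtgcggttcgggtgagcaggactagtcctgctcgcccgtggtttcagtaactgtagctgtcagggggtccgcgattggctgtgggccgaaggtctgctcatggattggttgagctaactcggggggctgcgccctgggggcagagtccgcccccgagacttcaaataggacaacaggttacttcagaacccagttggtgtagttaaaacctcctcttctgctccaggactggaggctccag
Gja1: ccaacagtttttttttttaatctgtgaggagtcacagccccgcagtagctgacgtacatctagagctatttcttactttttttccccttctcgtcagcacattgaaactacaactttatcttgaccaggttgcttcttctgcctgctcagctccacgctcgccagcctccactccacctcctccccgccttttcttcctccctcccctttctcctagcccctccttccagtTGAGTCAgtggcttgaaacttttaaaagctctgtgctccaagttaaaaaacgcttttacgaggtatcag
Gja4: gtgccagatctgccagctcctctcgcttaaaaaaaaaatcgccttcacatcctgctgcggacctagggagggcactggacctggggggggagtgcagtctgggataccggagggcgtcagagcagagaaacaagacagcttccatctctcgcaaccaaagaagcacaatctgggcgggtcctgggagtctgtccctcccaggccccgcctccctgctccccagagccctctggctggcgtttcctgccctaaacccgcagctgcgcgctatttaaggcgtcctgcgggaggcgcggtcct
Gja5: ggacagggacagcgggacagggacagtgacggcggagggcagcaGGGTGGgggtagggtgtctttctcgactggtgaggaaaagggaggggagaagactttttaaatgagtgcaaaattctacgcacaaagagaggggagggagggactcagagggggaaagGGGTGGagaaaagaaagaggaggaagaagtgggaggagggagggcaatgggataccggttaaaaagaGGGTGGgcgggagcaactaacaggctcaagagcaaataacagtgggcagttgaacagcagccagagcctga
The Gja5 stretch held CCACCC, on the minus strand, at 206, 88 and 21 bases before the start. The Gja1 stretch held TGANTCA once, 19 bases before the start, and neither motif was found in the Cldn5 and Gja4 windows. The windows of Ocln and Tjp1, the other 2 genes in the table, held CCACCC as well. The RefSeq start of Gja5 lies inside the gene as the mm9 annotation draws it. Of 32851 mouse promoters of this length, 31.5% held CCACCC and 7.81% held TGANTCA, and the motifs do not overlap. A match describes the letters and is not a measured site.

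Levels are given as scaled FPKM, the count per kilobase of effective gene length, set against the library total after TMM scaling. Scaling was done within the untreated, the treated and the 7 d libraries, so levels are compared only within each of these sets. Totals were 4064477 to 6794904 counts in the untreated pools, 12286104 to 19035957 in the treated libraries and 10318685 to 18633538 at 7 d. Low-flow pools A and B stood apart, since their TMM factors were 0.570 and 0.550 against 1.12 to 1.27 in the other 7 pools, and Actb took 10.6% and 10.1% of their counts against 3.74% in pool C. Without scaling factors the median of all genes fell by 0.69 between low and high flow. Values of the 10 genes that turn on this are given both ways below. The 11 endothelial markers took 0.398% to 0.541% of counts at low flow and 0.953% to 1.12% at high flow. 11 macrophage markers took 0.213% to 0.331% at low flow against 0.00676% to 0.0164% at high flow, 6 neutrophil markers 0.0226% to 0.0474% against at most 0.00117%, and 9 smooth muscle markers 0.233% to 0.431% against 0.0533% to 0.0627%. Of the markers tested, 9 of 10 of macrophages, 6 of 6 of neutrophils and 3 of 7 of smooth muscle were higher at low flow, and of 11 endothelial markers 3 were higher and 4 lower. Of fat cell markers 3 of 3 were lower at low flow, with 0.00536% to 0.0972% of counts at high flow against at most 0.000176%, and of fibroblast markers 2 of 7. The part of these cells in the results below was not tested.

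Between low and high flow in the untreated pools, Jam2 and Cldn5 were lower and Gja1 and Gja4 higher at low flow, while Cdh5, Ocln, Esam and Gja5 did not pass the test. With edgeR's quasi-likelihood test and an adjusted p under 0.05, 3 of the 10 genes were higher and 3 lower, against 46.2% of all genes tested called in either direction. The median log2 fold change of the 10 was 0.31, and that of all genes was −0.07.

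Of the adherens junction, Cdh5 had 77.8, 64.6 and 51.0 scaled FPKM in the low-flow pools and 38.2, 57.3 and 48.8 in the high-flow pools. The groups overlapped, and the log2 fold change was 0.41 ± 0.24 (SE, adjusted p = 0.187 by edgeR). Without scaling factors it was −0.30 (adjusted p = 0.510), and without pool C it was 0.57 and passed the test (adjusted p = 0.0481).

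Of the tight junction, Cldn5 had 55.9, 81.2 and 49.7 scaled FPKM at low flow and 196, 190 and 149 at high flow. Every low-flow pool lay below every high-flow pool, with a log2 fold change of −1.53 ± 0.24 (SE, adjusted p = 0.000497), and the call held in all 12 alternatives, with values from −2.23 to −1.38. Ocln had 30.1, 23.6 and 24.4 scaled FPKM at low flow and 18.8, 22.5 and 26.5 at high flow, which overlapped (log2 fold change 0.20 ± 0.19, adjusted p = 0.423), and without scaling factors its log2 fold change was −0.46 (adjusted p = 0.373). Tjp1 had 3.64, 2.85 and 4.13 scaled FPKM at low flow and 4.0, 6.14 and 6.65 at high flow. These overlapped, since high-flow pool D was below low-flow pool C. Tjp1 was called at −0.65 ± 0.23 (adjusted p = 0.0387), and the call was lost in 6 of 12 alternatives, among them without pool A (−0.66), B (−0.52), E (−0.59) or F (−0.52). Its effective length of 6742 bases is the longest of the 10, and 1064 genes within 0.8 to 1.25 times this length had a median log2 fold change of −0.31, which is the reference for its value.

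The junctional adhesion molecules went apart. Jam2 had 16.8, 17.3 and 21.8 scaled FPKM at low flow against 110, 103 and 103 at high flow, with no overlap and a ratio of means of 0.177. Its log2 fold change of −2.49 ± 0.19 (SE, adjusted p = 4.16e-06) was the lowest of the 10, and it stayed between −3.07 and −2.26 in 12 alternatives, all past the threshold. Jam3 had 8.39, 8.94 and 11.7 scaled FPKM at low flow and 6.72, 5.42 and 4.89 at high flow. Although its groups did not overlap, its log2 fold change of 0.78 ± 0.23 (adjusted p = 0.0190) fell to 0.21 without scaling factors (adjusted p = 0.768) and was no longer called without pool C (0.61), E (0.74) or F (0.68). Esam had 831, 1233 and 482 scaled FPKM at low flow and 545, 420 and 421 at high flow, which overlapped through pool C. It was not called at 0.87 ± 0.39 (adjusted p = 0.0896), and without pool C it was called at 1.16 (adjusted p = 0.00159), while with pool C alone and without scaling factors it was 0.07.

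Gja1 and Gja4 were higher at low flow and Gja5 was not called. Gja1 had 45.9, 66.0 and 36.2 scaled FPKM at low flow and 0.924, 2.80 and 5.71 at high flow, a ratio of means of 15.7 and no overlap. The log2 fold change of 3.95 ± 0.48 (SE, adjusted p = 8.58e-05) held in all 12 alternatives, from 3.20 to 4.64. Gja4 had 3084, 3713 and 926 scaled FPKM at low flow and 369, 277 and 236 at high flow, again with no overlap, and was the most abundant of the 10 in low-flow pools. Its log2 fold change was 3.12 ± 0.55 (adjusted p = 0.00106), and pool C, at 926, carried a smaller change, so that with pool C alone it was 1.67, the lowest of 12 alternatives that reached 3.54 and all passed the test. Without scaling factors it was 2.24. Gja5 had 494, 508 and 246 scaled FPKM at low flow and 432, 523 and 434 at high flow. It was not called at −0.16 ± 0.37 (adjusted p = 0.746), but it was called lower at −0.95 without scaling factors (adjusted p = 0.00425) and at −0.90 with pool C alone (adjusted p = 0.0266), and it was 0.12 without pool C (adjusted p = 0.601). Of its 12 alternatives, the one without pool C was the only one in which the sign changed.

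**Figure D1:**
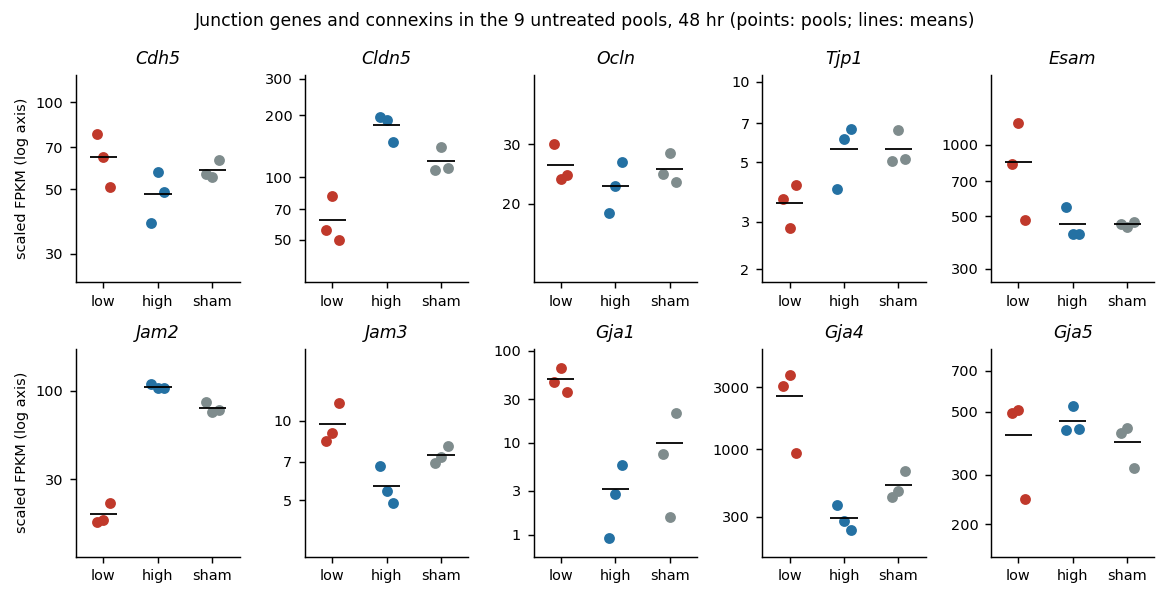
Scaled FPKM on a log axis for each of the 10 genes in the 3 low-flow, 3 high-flow and 3 sham pools at 48 hr, with points for pools and lines for group means. The low-flow pools lie below the others in Jam2 (16.8 to 21.8) and Cldn5 (49.7 to 81.2) and above them in Gja1 (36.2 to 66.0) and Gja4 (926 to 3713).

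Because both genes are read from 1 library, the ratio of Gja4 to Gja5, per length, does not depend on scaling. It can still carry shifts that go with gene length, which are given below. It was 6.24, 7.31 and 3.77 in low-flow pools A, B and C and 0.854, 0.529 and 0.544 in the high-flow pools. In sham pools G, H and I it was 1.02, 1.08 and 2.16, between the other groups. Of the summed levels of Gja1, Gja4 and Gja5, Gja4 made up 76.7% to 86.6% at low flow and 34.5% to 46.0% at high flow, where Gja5 made up 53.9% to 65.2%. Gja1 was at most 3.00% of the 3 in any untreated pool.

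Sham-operated arteries show which side of the ligated animals moved from normal flow. Against sham, low flow raised 2 and lowered 3 of the 10 genes, against 40.3% of all genes called, and high flow changed 0 of them, where edgeR called 0% of all genes (868 at an unadjusted p under 0.05) and DESeq2 105. Jam2 had 85.9, 75.0 and 76.7 scaled FPKM in sham pools, all below the high-flow pools (0.40 ± 0.15 from sham to high flow, adjusted p = 0.496), and low flow differed from sham by −2.11 ± 0.18 (SE, adjusted p = 0.000974). Cldn5 had 109, 140 and 112 scaled FPKM in sham pools, between low and high flow and overlapping neither, with −0.99 ± 0.23 from sham to low flow (adjusted p = 0.0119) and 0.55 ± 0.19 from sham to high flow (adjusted p = 0.440). Gja4 had 427, 474 and 680 scaled FPKM in sham pools, above all high-flow pools and below all low-flow pools. Low flow differed from sham by 2.26 ± 0.57 (adjusted p = 0.0153), and high flow by −0.86 ± 0.24, which edgeR did not call (adjusted p = 0.362) and DESeq2 did (−0.85, adjusted p = 0.0424). Gja1 spread widely in sham arteries, with 7.60, 1.57 and 21.1 scaled FPKM, and low flow differed from sham by 2.26 ± 0.69 (adjusted p = 0.0303). In sham pools the smooth muscle list took 0.0451% to 0.164% of counts and the macrophage list 0.0208% to 0.0636%. At low flow 8 of 11 macrophage, 6 of 6 neutrophil and 2 of 7 smooth muscle markers were higher than in sham. Of 11 endothelial markers 2 were higher and 4 lower, and of 6 fibroblast markers 2 were lower. The part of these lists was not tested. Tjp1, at 5.08, 6.62 and 5.17 scaled FPKM in sham pools, was lower at low flow by a log2 of −0.69 ± 0.20 (adjusted p = 0.0261), next to a median of −0.35 for genes of like length. Several of these calls rested on single pools. The number of the 10 genes called was 1 without pool A, 2 without B, 6 without C, 2 without G, 3 without H and 5 without I. These numbers are not set against those of all genes in the same fits. Of the 5 calls, that of Jam2 held without each pool in turn, and with pool C as the one low-flow pool 0 genes of any kind were called against sham.

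The treated libraries repeat the comparison of flow under 2 control treatments. Low-flow and high-flow libraries of treated mice carry different run names in the table, so flow and run cannot be told apart here. At low flow 3 of the 10 genes rose and 4 fell under IgG, next to 40.5% of all genes called, and under PBS liposomes 4 were higher and 3 lower, against 35.0%. The endothelial markers took 0.476% to 0.632% of counts at low flow and 1.93% to 1.97% at high flow under IgG, with 2 of 11 higher, 7 lower and a median log2 fold change of −1.30, and 0.443% to 0.457% against 1.12% to 1.52% under PBS liposomes, with 1 higher, 5 lower and a median of −1.02. Macrophage markers were higher in 10 of 11 under IgG and 7 of 11 under PBS liposomes, and neutrophil markers in 6 of 6 and 5 of 6. The smooth muscle list took 0.437% to 0.473% at low flow against 0.0513% to 0.0769% under IgG and 0.303% to 0.589% against 0.0488% to 0.0926% under PBS liposomes, with 2 of 9 markers higher in both. The part of these shifts in the values below was not tested. Jam2 had 47.7 and 25.7 scaled FPKM at low flow and 192 and 173 at high flow under IgG (log2 fold change −2.31 ± 0.34, adjusted p = 0.00107). Under PBS liposomes it had 31.4 and 40.9 against 194 and 164 (−2.31 ± 0.34, adjusted p = 0.000937). Under neither treatment did the groups overlap, and in these 2 comparisons the call held without each library in turn.

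Gja5 had 186 and 280 scaled FPKM at low flow and 565 and 517 at high flow under IgG, a log2 fold change of −1.21 ± 0.31 (adjusted p = 0.0102). Under PBS liposomes it had 154 and 247 against 591 and 561 (−1.52 ± 0.31, adjusted p = 0.00414). Low-flow libraries were below high-flow libraries in both, and the call was lost in 1 of 20 alternatives over the 2 treatments, without low-flow IgG library 1 (−0.94, adjusted p = 0.0760). Gja4 moved the other way, with 484 and 406 against 211 and 106 scaled FPKM under IgG (1.49 ± 0.35, adjusted p = 0.00719) and 593 and 897 against 209 and 306 under PBS liposomes (1.53 ± 0.35, adjusted p = 0.00672). It was not called without high-flow IgG library 2 (1.08), without high-flow PBS library 1 (1.29) or without low-flow PBS library 2 (1.21). Under IgG, genes of like length had medians of 0.48 for Gja4, 0.35 for Jam3, 0.64 for Cldn5, 0.69 for Jam2 and −0.07 for Gja5. Under PBS liposomes these medians were 0.47, 0.29, 0.64, 0.68 and −0.19. Gja1 had 38.2 and 77.2 against 1.17 and 2.04 scaled FPKM under IgG (5.16 ± 1.21, adjusted p = 0.00722), and 81.2 and 92.3 against 1.34 and 14.1 under PBS liposomes (3.49 ± 1.09, adjusted p = 0.0288). The high-flow PBS library at 14.1 lay between the other high-flow library and the low-flow libraries, and the Gja1 call was lost without high-flow IgG library 1 (4.83), without high-flow PBS library 1 (2.63) and without low-flow PBS library 1 (3.58) or 2 (3.40). Without high-flow PBS library 2, at 14.1, it was 6.02 and called.

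Cldn5 had 188 and 150 scaled FPKM at low flow against 433 and 375 at high flow under IgG, and 166 and 176 against 394 and 294 under PBS liposomes. The log2 fold changes were −1.26 ± 0.34 (adjusted p = 0.0144) and −1.01 ± 0.34 (adjusted p = 0.0403). The call was lost without high-flow IgG library 1 (−1.14), without low-flow IgG library 2 (−1.09) and without each of the 4 PBS libraries in turn (−1.20 to −0.78), while the groups did not overlap. Jam3 was higher at low flow under IgG, with 11.5 and 10.5 against 4.34 and 5.55 scaled FPKM (1.15 ± 0.31, adjusted p = 0.0140), and under PBS liposomes, with 17.1 and 13.0 against 6.28 and 4.68 (1.46 ± 0.31, adjusted p = 0.00538). Under IgG that call was lost without high-flow library 1 (0.99) or low-flow library 1 (1.09) or 2 (1.23). Tjp1 had 10.5 and 9.57 against 31.8 and 47.4 scaled FPKM under IgG (−1.98 ± 0.37, adjusted p = 0.00287), where genes of like length had a median of −0.73. Under PBS liposomes it had 8.27 and 8.20 against 20.8 and 10.3 and was not called (−0.92 ± 0.36, adjusted p = 0.0708), and without high-flow library 2 it was called (−1.33), while without high-flow library 1 it was −0.32 (adjusted p = 0.602).

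Cdh5 was lower at low flow under IgG, where it had 37.2 and 30.6 against 51.9 and 51.4 scaled FPKM, without passing the test (−0.61 ± 0.25, adjusted p = 0.0746). Under PBS liposomes it was higher, with 45.9 and 49.3 against 29.7 and 21.2 scaled FPKM (0.90 ± 0.25, adjusted p = 0.0184), and this call was lost without high-flow library 2 (0.69) or low-flow library 1 (0.96) or 2 (0.86). Neither Ocln nor Esam was called under either treatment. Ocln ranged from 23.5 to 33.5 scaled FPKM in these low-flow libraries and from 33.1 to 49.3 at high flow, and Esam from 539 to 706 at low flow and 499 to 670 at high flow.

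Gja1 and Jam2 passed the test after platelet depletion in low-flow arteries, with all libraries in the fit. Between anti-GPIba and IgG, 1 of the 10 genes was higher and 1 lower, against 16.5% of all genes called. Gja1 had 3.28 and 2.93 scaled FPKM after anti-GPIba and 38.2 and 77.2 under IgG, a log2 fold change of −4.21 ± 1.14 (SE, adjusted p = 0.0347). The values after anti-GPIba lay nearer to the 1.17 and 2.04 of the high-flow IgG libraries than to their own control. Jam2 had 97.6 and 98.1 scaled FPKM against 47.7 and 25.7 (1.42 ± 0.33, adjusted p = 0.0272), above its control and below the high-flow levels of 192 and 173. With 1 of the 4 libraries left out, neither was called, with Jam2 at 1.42 and 1.41 without anti-GPIba library 1 or 2 and 1.93 and 1.04 without IgG library 1 or 2, Gja1 at −4.30, −4.14, −4.63 and −3.62 in that order, and adjusted p from 0.0504 to 0.207. In the same fits 1 to 89 of all genes were called.

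The other connexins and Cldn5 did not pass the test after anti-GPIba. Gja4 had 518 and 570 scaled FPKM (0.29 ± 0.34 against IgG, adjusted p = 0.559), and Gja5 had 310 and 223 (0.19 ± 0.30, adjusted p = 0.670). Cldn5 had 256 and 263 scaled FPKM, above its IgG libraries at 188 and 150 and below all high-flow libraries, and was not called (0.62 ± 0.34, adjusted p = 0.208). Ocln had 58.9 and 54.7 scaled FPKM against 23.5 and 33.5, just short of the threshold (0.99 ± 0.32, adjusted p = 0.0531) and called by DESeq2 (1.01, adjusted p = 0.0197). Fitted with the IgG group alone, Cldn5 and Ocln were called as well, which made 4 genes, and 4449 of all genes were called in place of 2216. Marker genes of other cells moved in this comparison too. The macrophage list took 0.0222% to 0.0318% of counts after anti-GPIba and 0.221% to 0.240% under IgG, with 6 of 11 genes lower, and 6 of 6 neutrophil markers tested were lower. The smooth muscle list took 0.0726% to 0.103% against 0.437% to 0.473%, with 2 of 9 lower. The endothelial list took 1.11% to 1.13% against 0.476% to 0.632%, and the part of these shifts in the Gja1 and Jam2 values was not tested.

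After granulocyte or macrophage depletion 0 of the 10 genes were called. Against IgG, anti-Gr1 gave 0% of all genes called by edgeR, 197 called by DESeq2 and 2432 with an unadjusted p below 0.05. Against anti-Gr1, anti-GPIba likewise gave 0% of genes, 352 by DESeq2 and 1409 with an unadjusted p below 0.05, and the Gja1 difference was −2.92 ± 1.08 (adjusted p = 0.382). Clodronate against PBS liposomes gave 0.119% of genes, all 16 of them lower, and 462 by DESeq2. Without being called, Gja1 lay below its control libraries after both and Tjp1 above, and after clodronate Jam2 and Gja5 also lay above and Cdh5 and Jam3 below. With 2 libraries a group, genes can lie apart in this way without an effect, and the share of all genes was not counted. Gja1 was unevenly spread in these groups, with 9.41 and 37.7 scaled FPKM after anti-Gr1 and 3.98 and 32.0 after clodronate. The smooth muscle list took 0.181% and 0.623% of counts in the same 2 anti-Gr1 libraries, against 0.437% to 0.473% under IgG, and 0.245% and 0.271% in the clodronate libraries, against 0.303% to 0.589% under PBS liposomes. The macrophage list took 0.125% to 0.130% after anti-Gr1 against 0.221% to 0.240%, and 0.0235% to 0.0241% after clodronate against 0.132% to 0.220%. The neutrophil list took 0.00198% to 0.00304% against 0.0109% to 0.0350%, and 0.00246% to 0.00353% against 0.0102% to 0.0314%. The endothelial list took 0.847% to 0.997% after anti-Gr1 against 0.476% to 0.632%, and 0.673% to 1.01% after clodronate against 0.443% to 0.457%. The fibroblast list took 0.0991% to 0.105% against 0.0347% to 0.0400%, and 0.0184% to 0.0546% against 0.0171% to 0.0269%. The part of these shares in the values of Gja1 and Jam2 was not tested. The log2 fold change of Gja1 to the control was −1.29 ± 1.00 for anti-Gr1 (adjusted p = 0.490) and −2.27 ± 1.03 for clodronate (adjusted p = 0.334). Jam2 had 63.1 and 42.1 scaled FPKM after anti-Gr1 and 70.2 and 42.7 after clodronate, and the latter lay above the libraries under PBS liposomes (31.4 and 40.9). With an SE of 0.32 for both, its differences of 0.52 from IgG and 0.64 from PBS liposomes were not called. The unreplicated pair of 100 bp pools had 97.8 FPKM of Gja1 with PBS liposomes and 24.3 with clodronate, and 25.3 and 29.8 FPKM of Jam2, in the order of the 2 treatments.

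**Figure D2:**
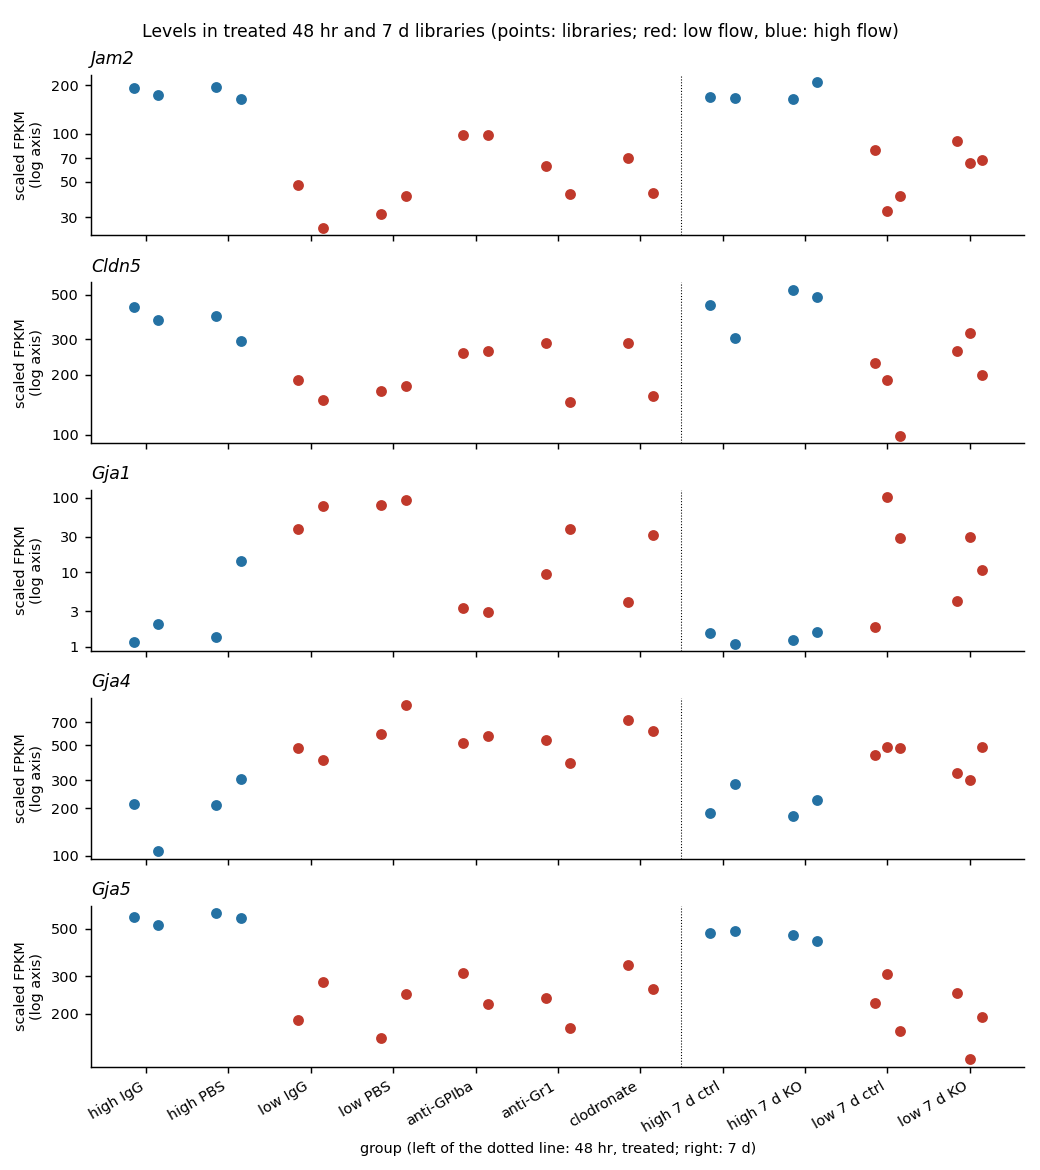
Scaled FPKM on a log axis for Jam2, Cldn5, Gja1, Gja4 and Gja5 in each treated library at 48 hr and each library at 7 d, with low flow in red and high flow in blue. Gja1 after anti-GPIba (3.28 and 2.93) sits by the high-flow libraries, and Gja1 in the 7 d low-flow controls runs from 1.86 to 101.

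At 7 d the deleted gene was read first. Rbfox2 had 3.11, 5.58 and 2.76 scaled FPKM in the low-flow controls and 1.08, 0.174 and 0.603 in the low-flow EC-KO libraries. At high flow it had 3.73 and 4.05 in controls and 0.775 and 1.08 in EC-KO libraries, so that every EC-KO library lay below every control, although edgeR gave adjusted p of 0.692 at low flow and 1 at high flow. 0 of the 10 genes were called between EC-KO and control at low flow, where edgeR called 0% of all genes (880 at an unadjusted p under 0.05) and DESeq2 16. At high flow 0 of the 10 were called too, against 0.00749% of all genes, which is 1 gene, and 29 by DESeq2. The groups of all 10 genes overlapped at low flow, and the share of all genes that did so was not counted. Libraries with the same column number were set in pairs, and the libraries of pairs 4 and 5 carry different run names. How many of all genes went 1 way in all 3 pairs was not counted. Ocln, Jam2 and Cldn5 were higher in EC-KO in 3 of 3 pairs, and with the column number as a replicate block they were not called (0.68, 0.64 and 0.66, adjusted p = 0.444 for each). Beside them, the fibroblast list took 0.102% to 0.472% of counts in low-flow EC-KO libraries and 0.0405% to 0.107% in controls, where 0 of 7 markers were called and their median was 1.87 on the log2 scale. The macrophage list took 0.0976% to 0.178% and 0.0324% to 0.167%, with 0 of 11 called. The endothelial list took 0.835% to 1.01% and 0.557% to 1.17%, and the part of these lists was not tested. Cdh5, whose promoter drives the Cre, had 23.2, 37.5 and 39.0 scaled FPKM in EC-KO and 27.2, 36.3 and 32.9 in control libraries (0.05 ± 0.22, adjusted p = 0.964). Ocln had 65.9, 77.3 and 54.1 scaled FPKM in EC-KO and 55.3, 38.4 and 32.1 in controls (0.65 ± 0.23, adjusted p = 0.692). Without control library 1 the test called 2 genes, Ocln at 0.90 and Jam2 at 1.02, among 1476 of all genes.

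Between low and high flow at 7 d, 0 of the 10 genes were higher and 1 lower in controls, against 2.40% of all genes called, and 0 were called in EC-KO mice, against 1.09%. With the column number as a replicate block, which is not stated to mark the same mice, 5 of the 10 were called in controls and the same 5 in EC-KO mice (Cldn5, Jam2, Gja1, Gja4 and Gja5), among 2940 and 1317 of all genes. The endothelial markers took 0.557% to 1.17% of counts at low flow and 1.70% to 1.80% at high flow in controls, with 1 of 11 higher and 4 lower, and 0.835% to 1.01% against 1.82% to 1.90% in EC-KO mice, with 1 higher and 3 lower. The smooth muscle list took 0.129% to 0.177% at low flow against 0.0297% to 0.0395% in controls and 0.110% to 0.169% against 0.0277% to 0.0327% in EC-KO mice, and the macrophage list 0.0324% to 0.167% against 0.00488% to 0.0135% and 0.0976% to 0.178% against 0.00841% to 0.0103%. Fibroblast markers were called higher at low flow in 0 of 7 in controls and 1 of 7 in EC-KO mice. The part of these shifts in the values below was not tested. DESeq2 called 2219 genes in controls, with Jam2, Cldn5, Gja1, Gja4 and Gja5 among them, and 964 in EC-KO mice, with Jam2, Gja4 and Gja5 among them (3332 and 2099 with an unadjusted p below 0.05 in edgeR). Jam2 in controls had 78.5, 32.7 and 40.7 scaled FPKM at low flow and 168 and 167 at high flow (−1.73 ± 0.33, adjusted p = 0.0366). In EC-KO libraries it had 89.6, 65.3 and 68.4 against 165 and 210 (−1.33 ± 0.33, adjusted p = 0.0977). The groups did not overlap in either genotype. Gja5 had 225, 307 and 165 against 476 and 488 scaled FPKM in controls and 250, 122 and 192 against 467 and 438 in EC-KO libraries, with log2 fold changes of −1.05 ± 0.32 (adjusted p = 0.0874) and −1.26 ± 0.32 (adjusted p = 0.106). Gja4 had 432, 484 and 480 against 186 and 286 in controls and 336, 300 and 487 against 177 and 223 in EC-KO libraries, with 0.98 ± 0.28 (adjusted p = 0.0741) and 0.90 ± 0.28 (adjusted p = 0.159).

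Gja1 at 7 d differed most within a group. Low-flow controls had 1.86, 101 and 29.0 scaled FPKM, a range of 54.3-fold, against 1.52 and 1.11 at high flow, and low-flow EC-KO libraries had 4.13, 29.8 and 10.6 against 1.25 and 1.59. Neither difference was called (5.06 ± 1.48, adjusted p = 0.0784, and 3.38 ± 1.36, adjusted p = 0.271). The lowest low-flow value of each genotype was library 1, which carries an earlier run name in the table than the other libraries at 7 d. Its macrophage list took 0.0419% of counts in the control and 0.0976% in the EC-KO mice, against 0.0324% to 0.167% and 0.0976% to 0.178% over the 3 libraries of each genotype, and its endothelial list was the highest of its group, at 1.17% and 1.01%. The highest Gja1 value of each genotype was library 4, which also held the highest macrophage share of its group, at 0.167% and 0.178%, and the highest neutrophil share, at 0.0379% in the control against 0.000959% and 0.00209% in the other controls and at 0.00339% in EC-KO against 0.000574% and 0.000850%. The fibroblast share of library 4 was 0.472% in EC-KO, the highest of its group, and 0.0584% in the control. The part of these shares was not tested. Without control library 1, edgeR called 4 of the 10 genes in controls, which were Jam2, Cldn5 (−1.38), Gja1 (5.62) and Gja4 (1.03), among 3897 of all genes, and without any of the other 4 control libraries it called 0, with Jam2 at −1.49 to −1.73. Within the run that holds all high-flow libraries, the one low-flow control library had 32.7 scaled FPKM of Jam2 and 307 of Gja5, and the one low-flow EC-KO library 68.4 and 192, all below the high-flow libraries.

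The difference of the flow changes between the genotypes was tested as an interaction, which called 0 of the 10 genes and 0% of all genes, next to 21 by DESeq2 and 538 with an unadjusted p below 0.05. It was 0.39 ± 0.48 for Jam2, −0.21 ± 0.47 for Gja5 and −0.08 ± 0.38 for Gja4 on the log2 scale. For Gja1 it was −1.68 ± 1.72, an error larger than the value itself. The smallest unadjusted p among the 10 was 0.0866 for Ocln, at 0.68 ± 0.36.

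**Figure D3:**
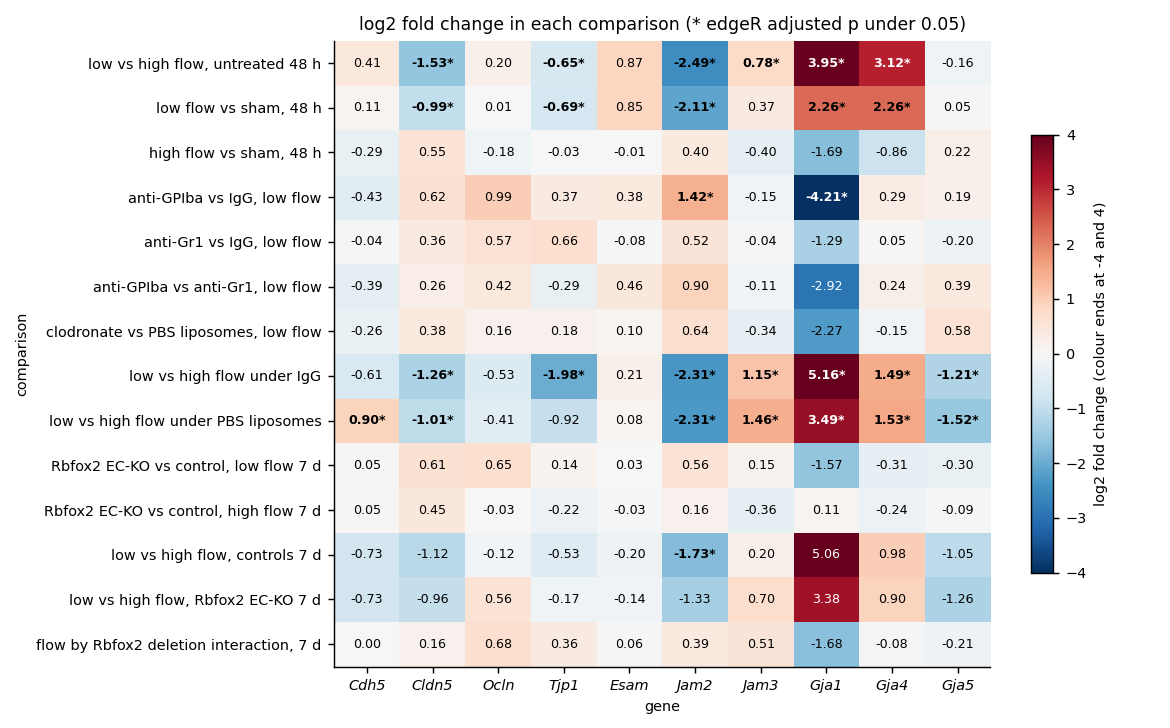
Log2 fold changes of the 10 genes (columns) in the 14 comparisons (rows), with the colour scale ending at −4 and 4 and a star where the edgeR adjusted p was under 0.05. Jam2 is below 0 in each of the 5 comparisons of low with high flow, from −2.49 to −1.33, and the largest fall is that of Gja1 after anti-GPIba (−4.21).

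Over all 33 replicated carotid libraries the ratio of Gja4 to Gja5 separated low from high flow. It was above 1 in each of the 19 low-flow libraries, where it ran from 1.34 to 7.31, and below 1 in each of the 11 high-flow libraries, from 0.205 to 0.854. Under IgG the low-flow libraries had 2.6 and 1.45, after anti-GPIba 1.67 and 2.55, after anti-Gr1 2.28 and 2.27 and after clodronate 2.16 and 2.36, next to 3.86 and 3.64 under PBS liposomes. At 7 d it was 1.92, 1.58 and 2.90 in low-flow controls and 1.34, 2.45 and 2.53 in low-flow EC-KO libraries, and 0.380 to 0.585 in the 4 high-flow libraries. These are descriptions, with no test, and comparisons that share a control group are not independent of each other. Between low and high flow, genes of like length had medians of 0.48 for Gja4 and −0.07 for Gja5 under IgG. Under PBS liposomes these medians were 0.47 and −0.19, and in the untreated pools 0.04 and −0.03. At 7 d they were 0.15 and 0.10 in controls and 0.05 and 0.11 in EC-KO mice. The part of gene length in the ratio was not tested.

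**Figure D4:**
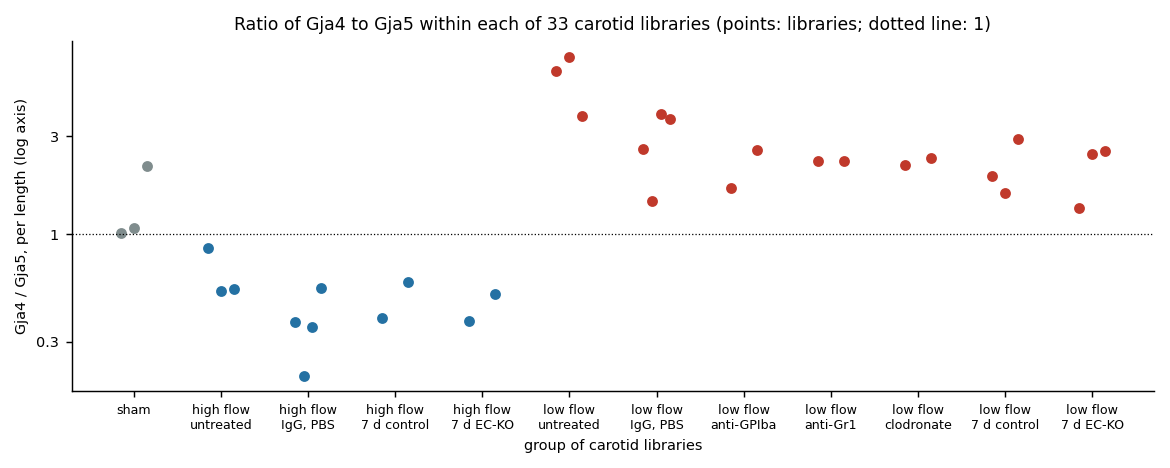
Ratio of Gja4 to Gja5, per length, on a log axis, for each of the 33 replicated carotid libraries by group, with a dotted line at 1. Low-flow libraries (red) lie between 1.34 and 7.31, high-flow libraries (blue) between 0.205 and 0.854 and sham pools (grey) between 1.02 and 2.16.

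Across these libraries the 10 genes varied to different degrees. The highest level was 2.93 times the lowest for Esam, 3.67 times for Cdh5, 4.03 times for Jam3, 4.12 times for Ocln and 4.82 times for Gja5. It was 10.7 times the lowest for Cldn5, 12.5 times for Jam2, 16.6 times for Tjp1, 35.0 times for Gja4 and 109 times for Gja1, and for this range levels of the 3 sets were put side by side although they were scaled apart.

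Among other genes of the junctions, 2 of 41 tested were higher and 14 lower between low and high flow (39.0% called, against 46.2% of all genes). Values of these genes are given after TMM scaling only. Of 13 adherens junction partners, 0 were higher and 4 lower at low flow in the untreated pools, with a median log2 fold change of −0.44. Ptprb, which encodes the VE-cadherin-associated phosphatase VE-PTP, had 21.1, 12.7 and 32.1 scaled FPKM at low flow and 89.7, 114 and 111 at high flow (−2.26 ± 0.37, adjusted p = 0.000679). Pkp4, encoding a p120-catenin relative, was lower as well (−1.94 ± 0.24, adjusted p = 0.000108). Of 30 tight junction partners, 16 were tested, of which 0 were higher and 6 lower, with a median of −0.67. Cgnl1, encoding paracingulin, had 13.0, 17.9 and 24.0 against 126, 96.2 and 85.1 scaled FPKM (−2.49 ± 0.31, adjusted p = 0.000101), and Cldn15 had 8.32, 11.8 and 13.1 against 60.8, 41.0 and 44.6 (−2.14 ± 0.23, adjusted p = 3.95e-05). Of 11 regulators of the CCM and Rap1 pathways, 10 were tested and 1 was higher and 3 lower, with Ccm2 at 0.85 ± 0.26 (adjusted p = 0.0221), Rapgef2 at −1.56 ± 0.31 (adjusted p = 0.00234) and Heg1, the membrane partner of the CCM complex, at −1.39 ± 0.33 (adjusted p = 0.00603). 20 other connexins and pannexins left 2 to test. Panx1, a channel for ATP, was higher (1.99 ± 0.50, adjusted p = 0.00818) at levels of 1.38 to 2.54 against 0.193 to 0.788, and Gjc1, encoding Cx45, was lower (−0.70 ± 0.20, adjusted p = 0.0142). The median of all genes was −0.07 in this comparison, and against sham 0 of 40 such genes tested were higher and 13 lower (32.5% called, against 40.3% of all genes).

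The patterns most like those of 5 of the genes were sought among 11182 genes over the means of the 10 carotid groups at 48 hr, on the log2(FPKM + 0.5) scale without scaling factors. For Gja5 they were Icosl (Pearson r 0.967) and Cyp3a13 (0.952), for Gja4 Tm4sf1 (0.964) and Ftl2 (0.938), and for Gja1 6430562O15Rik (0.991) and Tes (0.990). For Cldn5 they were Rnf215 and BC020535 (both 0.989), and for Cdh5 Snap29 (0.938) and BC048403 (0.928). Of the 10 points, 3 come from the untreated and 7 from the treated set, which differ in read length and depth, and treated low-flow and high-flow points differ in run name, so the coefficients are descriptions.

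In culture there was 1 library for each condition and no test, so levels in the cell line and the primary cells are descriptions. Levels here are FPKM without scaling factors. In the line, Cldn5 had 0.161 to 0.784 FPKM, Ocln 0.160 to 0.399 and Gja5 0.0720 to 0.386, from 3 to 17 counts each, at or not far above the level of 3 counts that was taken as a floor for counting error. Cdh5 had 2.17 FPKM in the untreated line, 1.86 after 10% plasma, 2.02 after platelets plus macrophages and 5.75 where plasma and both cell types had been added. In primary cells sorted for eGFP after 5 d, and for CD31 and Icam2 after 7 d from Rbfox2 control and EC-KO mice, it had 63.3, 68.3 and 71.4 FPKM. All 10 genes were above 1 FPKM in the 3 primary libraries. The endothelial markers took 0.0369% to 0.0399% of counts in the line and 0.351% to 0.639% in primary cells, and 7 fibroblast markers took 0.137% to 0.245% in the line and 0.00337% to 0.0491% in primary cells. The smooth muscle list went the other way, with 0.0290% to 0.0625% in the line and 0.264% to 0.576% in primary cells, where it came to 0.576% beside 0.585% for the endothelial list in the Rbfox2 control library. The line, labelled as endothelial, held less of the endothelial list than of the fibroblast list.

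Gja1 led the connexins of the line, at 213 FPKM untreated, 137 after plasma, 227 after platelets plus macrophages and 218 after the full mix, next to 34.3, 23.9 and 19.1 FPKM in the primary libraries. Gja4 had 16.3 FPKM in the untreated line and 23.2, 36.9 and 85.1 in these 3 conditions. Next to it, the macrophage list took 0.00206%, 0.00572%, 0.0386% and 0.0301% of counts in the same order, and its part was not tested. Jam2 had 19.2, 11, 21.1 and 34.6 FPKM in that order. Primary cells held 536, 151 and 211 FPKM of Gja4 and 210, 100.0 and 167 FPKM of Gja5, a ratio of 2.56, 1.51 and 1.27. Between the primary control and EC-KO libraries, where Rbfox2 had 9.33 and 0.675 FPKM, Cldn5 had 28.1 and 62.1 FPKM, Ocln 23.6 and 35.6 and Tjp1 19.5 and 22.2, and these differences have no replicate check. The macrophage list took 0.0325% of counts in the control and 0.000201% in the EC-KO library, and its part was not tested.

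**Figure D5:**
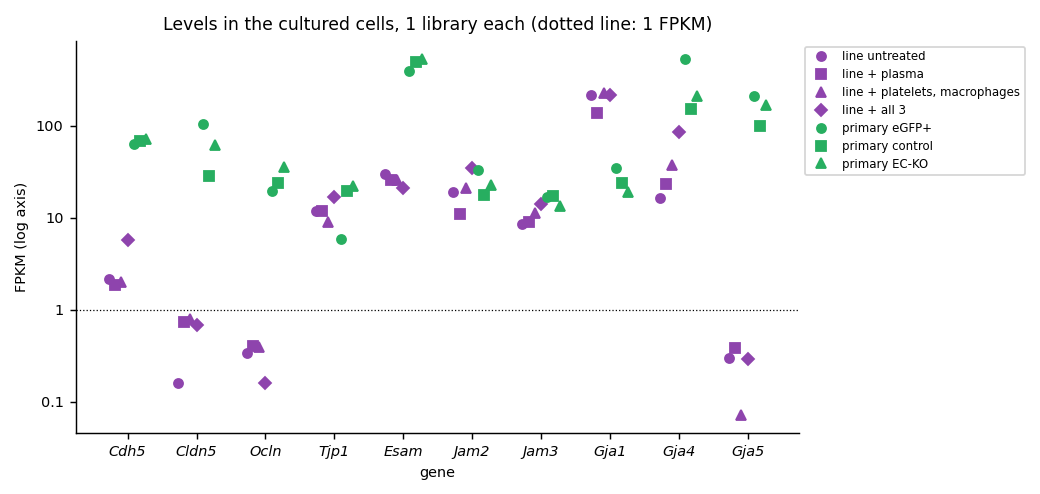
FPKM on a log axis of the 10 genes in the 4 libraries of the cell line (purple) and the 3 libraries of primary aortic endothelial cells (green), with a dotted line at 1 FPKM. Cldn5, Ocln and Gja5 lie below 1 FPKM in the line, and Gja1 lies at 137 to 227 FPKM there against at most 34.3 in primary cells.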

How the data were processed

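Expected counts per gene were deposited by the authors, who estimated them with RSEM 1.2.15 on an mm9 RefSeq annotation, without normalization and with 1 effective length per gene. They mapped the 150 bp reads with STAR 2.5.1b (submitters' notes), and their methods name TopHat for the trimmed reads of the untreated pools. Between 5.20% and 19.3% of the expected counts of a library were not whole, and all were rounded for testing. RPKM values deposited by the authors for cultured cells were compared with the computed FPKM, and their ratio was 0.924 to 1.18 over 58 values of at least 1 FPKM. The table has 204 columns of values, of which 49 entered the analysis. The other 155 stayed out, with RSEM's TPM and a second run of the untreated pools among them, as did 1 entry that names no gene.

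Tests were made in edgeR 4.0.16 (R 4.3.3) after filterByExpr and TMM scaling, by quasi-likelihood, and p-values were adjusted by Benjamini-Hochberg over all genes tested. Untreated groups were fitted 2 at a time, the 7 treated groups together and the 4 groups at 7 d together. The floor of 3 counts for low levels takes in counting error alone. PCR copies of a molecule cannot be told from separate molecules, so the error of low levels can be larger. DESeq2 1.42.0, other scalings, no filter, the replicate block and leaving out each library were alternatives. Total counts alone, pool C alone and the difference of flow changes between IgG and PBS liposomes were added after seeing the data. Scripts were tested on simulated counts. Named junction genes are up to 2 higher and 2 lower per list with the largest log2 fold change among called genes whose groups do not overlap. Members and lists were chosen with earlier results of these data known.

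Equal numbers go together for low-flow EC-KO and control libraries at 7 d, where the column numbers 1, 4 and 5 gave correlations of deviations of 0.489, 0.170 and 0.272. Figures were drawn with matplotlib 3.10.9 in Python 3.11.15.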

Additional observations from a re-analysis of the deposited data

Results flagged for a closer look

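Cdh5 stood out because its flow change went opposite ways under the 2 control treatments. Its low-flow libraries had 37.2 and 30.6 scaled FPKM under IgG, both below the high-flow libraries at 51.9 and 51.4, while under PBS liposomes they had 45.9 and 49.3, both above 29.7 and 21.2. The flow change under IgG minus that under PBS liposomes was −1.51 ± 0.36 on the log2 scale (SE, unadjusted p = 0.00137, adjusted p = 0.599 by edgeR over 13401 genes), a test that was added after seeing the data. It called 0 genes of all those tested, with 801 at an unadjusted p under 0.05, and among the other 9 genes of the set the difference ran from −1.06 for Tjp1 to 1.68 for Gja1, none of them called.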

How the results depend on the processing

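28 values of the 10 genes passed the test, and of 303 values of these under alternatives 242 kept direction and call, 61 kept the direction without the call and 0 reversed. Uncalled values of Cdh5 (−0.30) and Ocln (−0.46) between low and high flow, and of Cdh5 (−0.64), Ocln (−0.69), Jam3 (−0.25) and Gja5 (−0.79) between low flow and sham, were negative on total counts alone. Between low flow and sham with pool C alone Cdh5 was −0.22, Ocln −0.084 and Gja5 −0.71. With each library left out, uncalled values changed sign for Gja5 between low and high flow (−0.32 to 0.12), Cdh5 (−0.023 to 0.27), Ocln (−0.092 to 0.13) and Gja5 (−0.089 to 0.33) between low flow and sham, Gja5 after anti-GPIba (−0.067 to 0.52), Cdh5 between EC-KO and control at low flow (−0.086 to 0.25), and Gja4 (−0.42 to 0.20) and Gja5 (−0.47 to 0.020) in the interaction at 7 d. With pool C as the one low-flow pool, the number of the 10 called between low flow and sham went from 5 to 0 and that of all genes from 4499 to 0, and between low and high flow 2731 genes were called in place of 5195. High flow against sham had 0 of the 10 called and 1 with DESeq2. With the anti-GPIba and IgG groups fitted alone 4 of the 10 were called in place of 2. In 7 d controls, 1 of the 10 was called, 5 with DESeq2, 5 with the replicate block and 0 with the 2 groups alone. In 7 d EC-KO mice, 0 were called, 3 with DESeq2, 5 with the replicate block and 3 with the 2 groups alone. The cause of these shifts was not tested. The second run of the untreated pools, alone or summed with the first, was not run, since its columns could not be matched to single samples.

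With each library left out in turn, the number called was 4 to 7 between low and high flow, 1 to 6 between low flow and sham, 0 to 0 for anti-GPIba, 4 to 6 under IgG, 3 to 6 under PBS liposomes, 0 to 2 for EC-KO against control at low flow and 0 to 4 in 7 d controls. Where a group keeps 1 library, that library is assumed to vary like the others of the fit. For the untreated pools, IgG and PBS liposomes, these numbers are not set against those of all genes in the same fits. For the untreated pools alone, no block could be fitted, since they carry letters in place of numbers. Treated libraries share only a number, with correlations from −0.155 to 0.443, and the block called 64 genes in place of 16 after clodronate and 4 in place of 0 between anti-GPIba and anti-Gr1. At 7 d the low-flow and high-flow libraries had −0.0322 to 0.220, and the block called 2940 genes in place of 320 in controls and 1317 in place of 146 in EC-KO mice. For EC-KO against control at low flow the block left 0 of the 10 called. Of all genes, DESeq2 called 3683 in place of 2216 for anti-GPIba, 462 in place of 16 after clodronate, 2219 in place of 320 in 7 d controls and 964 in place of 146 in 7 d EC-KO mice, and 105, 197, 352, 16 and 29 where edgeR called 0 or 1 (high flow against sham, anti-Gr1, anti-GPIba against anti-Gr1, EC-KO against control at low and at high flow). With the 2 groups alone edgeR called 4449 for anti-GPIba, 225 for anti-Gr1, 71 for anti-GPIba against anti-Gr1, 0 after clodronate, 3 in 7 d controls and 858 in 7 d EC-KO mice. With no filter it called 63 for high flow against sham, 76 for anti-GPIba against anti-Gr1, 92 after clodronate, 654 in 7 d controls and 221 in 7 d EC-KO mice. On total counts alone it called 6 after clodronate and 0 for EC-KO against control at high flow, where the block called 4, and DESeq2 called 21 for the interaction at 7 d in place of 0. With each library left out, all genes called ran from 1 to 89 for anti-GPIba, 3 to 3897 in 7 d controls, 1 to 15 in 7 d EC-KO mice and 0 to 1476 for EC-KO against control at low flow. Depth limits the cell line, where 3 counts are 0.161 FPKM of Cldn5.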
